A study of Mus musculus with 18 samples.

Results

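The nuclear genes of oxidative phosphorylation were defined by name. They are the rows of the gene table whose symbols begin with *Ndufa*, *Ndufb*, *Ndufc*, *Ndufs* or *Ndufv* followed by a number, the 4 *Sdh* genes, and the rows that begin with *Uqcr*, *Cox* followed by 4 to 8, or *Atp5*. The rule used no measured value, and it found 84 of 24369 genes. There were 37 of complex I, 4 of complex II, 8 of complex III, 18 of complex IV and 17 of complex V. Genes were placed in a complex by symbol, which need not give the complex a protein works in. The 17 include *Atp5s* and *Atp5sl*, which are named after the complex but are not subunits. The 84 genes were followed through bulk RNA-seq of mouse embryonic stem cells (mESCs). The libraries came from a time course of differentiation (days 0, 1, 2 and 3, with 3 libraries each) and from sorted GFP+ mESCs. The latter were wild-type, *Nprl2* KO or *Tsc2* KO (2 libraries each). The cells were E14 mESCs with the genotype Rex1GFPd2-Cas9, so every group, controls included, carried the *Rex1* reporter and Cas9, which the study describes as integrated at *Rosa26*. The KO cells were also *Nprl2*-/- or *Tsc2*-/-, made as clones by deletion of an exon with paired guide RNAs, so a genotype and its clone cannot be told apart. *Nprl2* is a subunit of Gator1 and *Tsc2* of the Tsc complex, both negative regulators of the growth kinase mTORC1. The study kept its mESCs in serum and LIF on feeder fibroblasts or, where indicated, on gelatin with LIF and inhibitors of MEK and Gsk3. Its differentiation assays placed sorted GFP+ cells in N2B27-based medium without inhibitors or LIF. Which culture and sorting came before day 0 of the RNA-seq time course is not given in the sources used here.

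Oxidative phosphorylation takes place at the inner membrane of the mitochondrion. Complexes I and II pass electrons from NADH and succinate to coenzyme Q, complex III passes them on to cytochrome c, and complex IV passes them to oxygen. Complexes I, III and IV pump protons as they work, and complex V, the ATP synthase, uses the proton gradient to make ATP. Most subunits are encoded in the nucleus, and several complex IV and ATP synthase subunits have isoforms from separate genes. Some of the complex IV isoforms are known mainly from muscle, testis or hypoxic cells. Naive mESCs use both respiration and glycolysis, and cells that leave naive pluripotency are known for relying more on glycolysis.

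Total estimated counts ran from 12503005 to 15305054 per library in the time course and from 8610357 to 13780861 in the GFP+ libraries. The mESC markers fixed for the check (*Pou5f1*, *Sox2*, *Nanog*, *Sall4*, *Dppa4*, *Zfp42* and *Esrrb*) summed to 4613 to 4893 CPM (counts scaled to the library total) at day 0 and to 1114 to 1340 CPM at day 3, and *Zfp42*, the *Rex1* gene, fell from 671 to 753 CPM to 9.64 to 12.8 CPM. *Nprl2* lay at 5.96 and 6.50 CPM in the *Nprl2* KO against 11.7 and 12.6 CPM in wild-type, and *Tsc2* at 63.7 and 67.3 CPM in the *Tsc2* KO against 152 and 156 CPM. The 7 feeder fibroblast markers summed to 14.6 to 42.8 CPM in the time course. In the GFP+ libraries they summed to 249 and 348 CPM in wild-type, 262 and 277 CPM in *Nprl2* KO, and 73.5 and 299.9 CPM in *Tsc2* KO, where their part in the results was not tested.

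Levels between genes were compared as transcripts scaled to a fixed total (TPM), which divides by transcript length. At day 0, 72 of the 84 genes had a mean of at least 100 TPM and 4 had a mean under 1 TPM. *Atp5b*, the catalytic beta subunit of the ATP synthase, stood highest with a mean of 2022 ± 73.8 TPM (SD, n = 3). *Cox7c*, a small complex IV subunit, followed at 1187 ± 85.0 TPM. The complex II genes lay in a narrow band from 178 TPM for *Sdha* to 279 TPM for *Sdhc*, with a median of 209 TPM. The medians of complexes I, III, IV and V were 172, 471, 277 and 599 TPM. Of the 11 genes listed as alternative isoforms, the muscle forms *Cox6a2* and *Cox8b* and the testis form *Cox8c* never exceeded 6 estimated counts in any library, and neither did the lung form *Cox4i2*. *Ndufs5*, an accessory subunit that complex I assembly needs, also had only 0 to 9 estimated counts per library, while its pseudogene *Ndufs5-ps* had 345 to 805. Reads of that pair cannot be separated here, so *Ndufs5* has no usable value. These 5 genes failed the filter on low counts in the time course, which left 79 tested, and *Ndufa4l2* and *Cox7b2* also failed it in the GFP+ libraries, which left 77.

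All 84 genes together summed to 30268 to 30910 TPM at day 0 and to 25626 to 26314 TPM at day 3, with days 1 and 2 at 26285 to 26510 TPM and 25712 to 26507 TPM. The step down was thus between day 0 and day 1, and the sums of the later days overlapped. By complex, complex IV went from 7914 ± 130 TPM at day 0 to 6530 ± 42.7 TPM at day 1 and 6101 ± 165 TPM at day 3 (SD, n = 3). Complex II went from 875 ± 11.5 TPM to 679 ± 11.9 TPM at day 1 and stood at 763 ± 23.6 TPM at day 3. In the GFP+ mESCs, the 84 genes summed to 27286 and 27327 TPM in wild-type, 27959 and 28577 TPM in *Nprl2* KO, and 31965 and 32479 TPM in *Tsc2* KO. These TPM sums did not overlap between genotypes. As a share of the counts assigned to genes, *Nprl2* KO (1.05% and 1.12%) did overlap wild-type (1.07% and 1.08%). *Tsc2* KO stood above both by that measure too (1.23% and 1.24%). In bulk RNA, fewer cells of a type and less RNA per cell cannot be told apart.

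**Figure D1:**
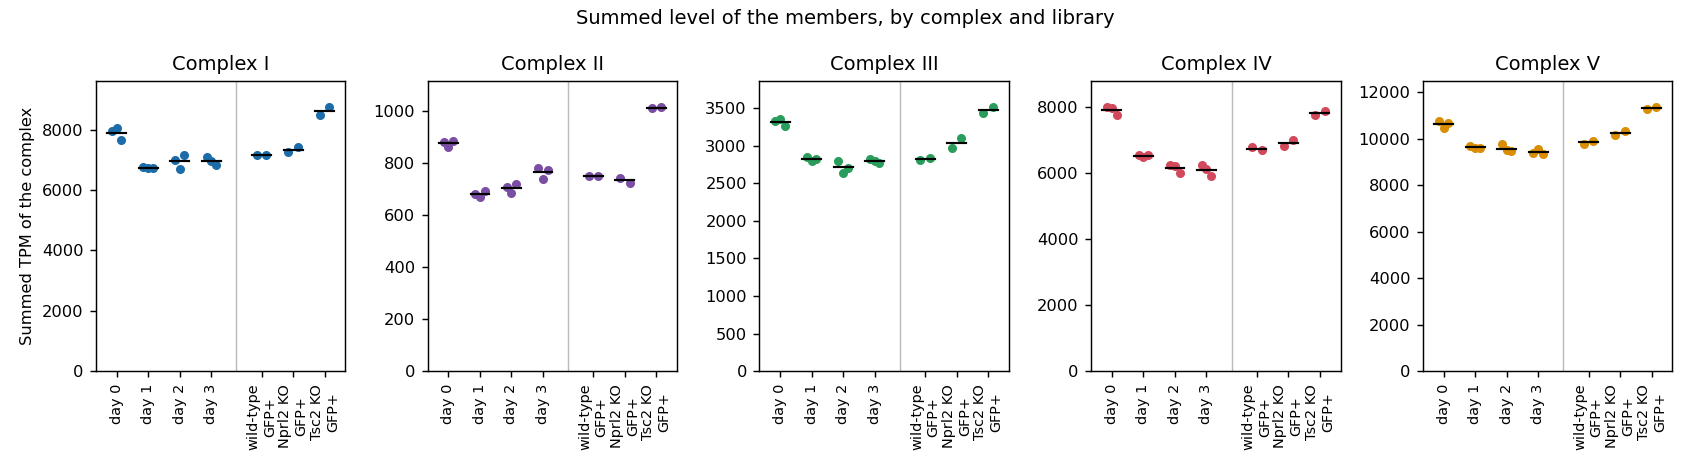
Summed TPM of the genes of each complex (y axis, from 0) in every library (points), by day or genotype (x axis), with the group mean as a bar; 3 libraries per day and 2 per genotype. Every complex is lower at day 1 than at day 0, and every complex is higher in *Tsc2* KO than in wild-type GFP+ mESCs.

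The first question was how the respiratory chain genes moved as mESCs left naive pluripotency. By day 3, 57 of the 79 genes tested were lower than at day 0 and 3 were higher, while 19 did not pass the test (edgeR, adjusted p under 0.05). Over all 14382 genes tested, 35.9% were lower and 35.0% were higher. The median log2 fold change of the 79 genes was -0.27, against -0.01 over all genes, so the changes were frequent but small. Of the 57, 54 had day 3 values that lay wholly below those of day 0, as did 96.2% of all genes called lower, so this count is near the background. Lower genes were found in each complex: 25 of 36 in complex I (median -0.23), all 4 in complex II (-0.19), 5 of 8 in complex III (-0.23), 11 of 14 in complex IV (-0.50) and 12 of 17 in complex V (-0.31).

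Complex IV held the largest falls. *Cox5a*, an accessory subunit of cytochrome c oxidase, had 233, 226 and 237 CPM at day 0 (TMM-scaled, as all CPM values here), 154, 149.9 and 154 CPM at day 1, 131, 137 and 115 CPM at day 2, and 129.9, 127 and 126 CPM at day 3. Its fall from day 0 to day 3 was -0.86 ± 0.06 (log2 fold change ± SE, adjusted p = 2.3e-10). *Cox6a1*, the ubiquitous VIa subunit, went from 165, 169 and 169 CPM to 94.4, 94.0 and 96.8 CPM, a change of -0.82 ± 0.05 (adjusted p = 7.6e-11). *Cox4i1*, the regulatory subunit IV, had 277, 267 and 267 CPM at day 0 and 181, 188 and 172 CPM at day 3 (-0.58 ± 0.05, adjusted p = 1.3e-08). In all 3 genes the day 3 libraries lay below every day 0 library, as in 96.2% of all genes called lower.

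Several subunits of complexes I to III were also lower at day 3. *Ndufv1*, which binds FMN and takes electrons from NADH, fell from 151, 139 and 153 CPM to 106, 114 and 106 CPM (-0.44 ± 0.06, adjusted p = 9.0e-07). *Ndufs1*, an iron-sulfur subunit, changed by -0.26 ± 0.06, past the threshold. In complex II, the flavoprotein *Sdha* (-0.15 ± 0.05) and the iron-sulfur subunit *Sdhb* (-0.22 ± 0.06) passed it too, but *Sdha* lost the call with upper-quartile scaling (adjusted p = 0.052), and both lost it when log2(TPM + 1) values were tested with limma (adjusted p = 0.24 and 0.051). In complex III, the core protein *Uqcrc1* fell from 318, 328 and 334 CPM to 183, 202 and 193 CPM (-0.76 ± 0.06, adjusted p = 8.1e-10). *Uqcrfs1*, the Rieske iron-sulfur protein of the same complex, went the other way, from 106, 114 and 109 CPM to 123, 121 and 115 CPM (0.13 ± 0.06, adjusted p = 0.040). That rise lost the threshold with no filter on low counts (adjusted p = 0.074), with only the 2 groups fitted (0.053) and when any of 4 libraries was left out (replicates 1 and 3 of day 0, replicates 1 and 2 of day 3).

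In the ATP synthase, the alpha subunit *Atp5a1* and the beta subunit *Atp5b*, which form the catalytic head, changed by -0.25 ± 0.05 and -0.37 ± 0.05 (adjusted p = 0.00018 and 1.6e-06). *Atp5b* lay at 1985, 1866 and 2002 CPM at day 0 and at 1503, 1560 and 1470 CPM at day 3. *Atp5d*, the delta subunit of the same head, rose from 138, 128 and 141 CPM to 169, 159 and 155 CPM (0.25 ± 0.07, adjusted p = 0.0033). The third gene that rose was *Ndufa2*, an accessory subunit of complex I, from 29.6, 34.1 and 32.6 CPM to 39.0, 41.5 and 41.9 CPM (0.34 ± 0.08, adjusted p = 0.00078). For each of the 3 genes that rose, day 0 and day 3 did not overlap. The same held for 97.0% of all genes called higher, so this is near the background.

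**Figure D2:**
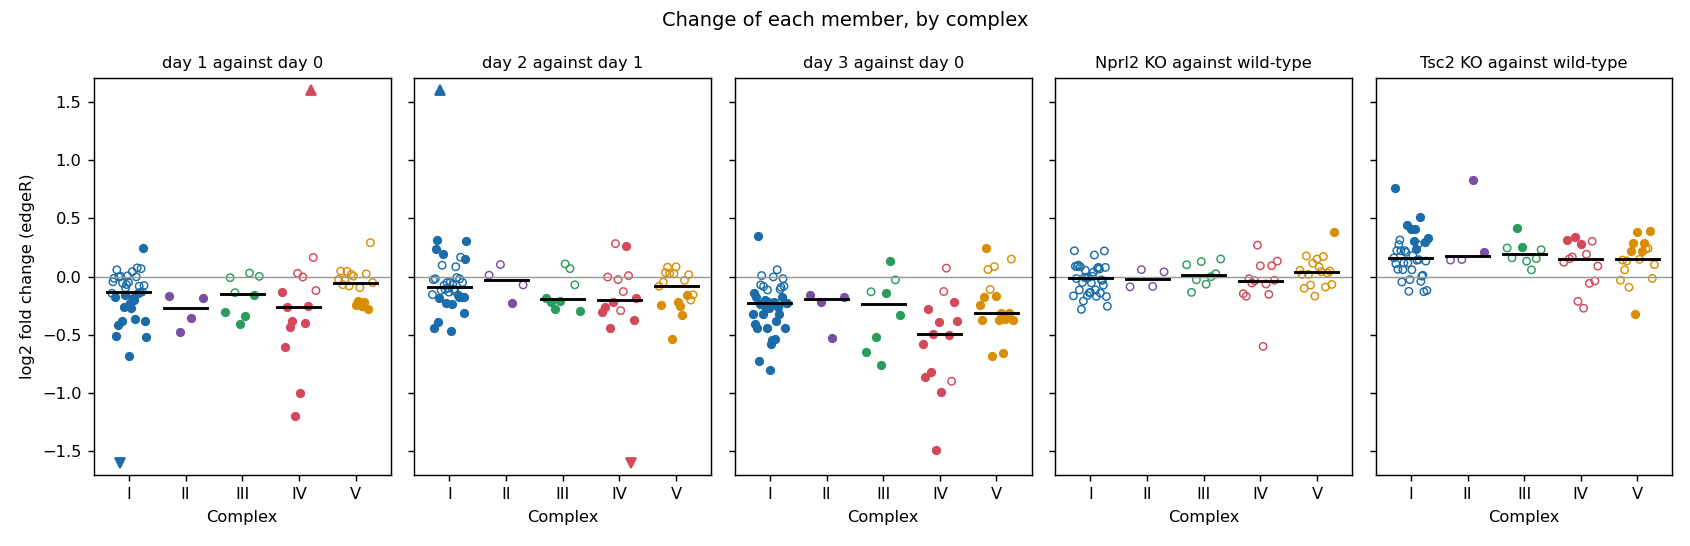
log2 fold change (y axis, edgeR) of each gene tested, by complex (x axis), in 5 of the 7 comparisons; filled points passed an adjusted p of 0.05, open points did not, bars are medians, and triangles mark genes beyond ±1.6. Most points lie below 0 at day 3, with complex IV lowest at a median of -0.50, and most lie above 0 in *Tsc2* KO.

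The windows around the gene starts were read because so many of these genes moved one way. RefSeq windows of 300 bases (GRCm38.p6) were found for 69 of the 84 genes. Where a gene had more than 1 window, a match in any of them counted. The letters GCATGCG, the core of a site of nuclear respiratory factor 1 (NRF1), were present on either strand in 11 of the 69 genes (15.9%). They were in 4.01% of all genes with a window and in 7.0% of such genes tested in the time course. An ETS core as bound by GABPA, CCGGAAG, was in 16 (23.2%, against 9.93% and 18.8%), and the core of a YY1 site, AAGATGG, in 12 (17.4%, against 7.28% and 7.99%). The letters ACGTG, the core bound by hypoxia-inducible factors, was in 19 (27.5%, against 21.8% and 28.9%). Of the 47 genes with a window that fell by day 3, the 4 motifs, in that order, were in 9, 10, 9 and 12. Of the 20 tested that did not fall, they were in 2, 6, 3 and 6. A match is a stretch of letters and not a measured site, and the end of CCGGAAG is the start of AAGATGG, so those matches can overlap. The 250 bases before the start are shown for the ubiquitous *Cox6a1*, which fell and holds the NRF1 and ETS letters, and for the isoform pair *Cox6b1* and *Cox6b2*, which fell by different amounts. Capitals mark the NRF1 and ETS letters (CCGGAAG on the other strand reads CTTCCGG). They lie at chr5:115348959-115349208, chr7:30626115-30626364 and chr7:4753095-4753344, all on the minus strand.
Cox6a1: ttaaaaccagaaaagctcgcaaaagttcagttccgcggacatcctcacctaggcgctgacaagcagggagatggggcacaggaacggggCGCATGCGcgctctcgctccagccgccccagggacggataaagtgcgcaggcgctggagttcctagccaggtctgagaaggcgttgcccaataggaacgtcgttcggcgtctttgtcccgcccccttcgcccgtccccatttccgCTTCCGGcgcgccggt
Cox6b1: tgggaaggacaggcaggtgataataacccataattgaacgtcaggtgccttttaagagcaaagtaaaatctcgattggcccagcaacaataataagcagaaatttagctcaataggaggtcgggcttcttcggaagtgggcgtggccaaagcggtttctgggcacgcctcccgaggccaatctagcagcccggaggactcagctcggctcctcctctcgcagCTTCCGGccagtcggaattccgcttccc
Cox6b2: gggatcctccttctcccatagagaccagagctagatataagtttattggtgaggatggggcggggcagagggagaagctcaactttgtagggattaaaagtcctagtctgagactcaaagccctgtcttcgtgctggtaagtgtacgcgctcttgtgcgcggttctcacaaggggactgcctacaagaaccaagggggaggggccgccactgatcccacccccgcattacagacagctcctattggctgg
The *Cox6a1* stretch holds 26 CG dinucleotides, that of *Cox6b1* 14 and that of *Cox6b2* 8, and the NRF1, ETS and YY1 letters are not in the *Cox6b2* stretch.

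*Cox6b2*, the isoform of subunit VIb best known from testis, had the largest fall by day 3 among the 79 genes of oxidative phosphorylation tested. It lay at 43.9, 55.5 and 35.6 CPM at day 0, at 21, 19.3 and 18.8 CPM at day 1, at 24.3, 19.98 and 27.7 CPM at day 2, and at 17.2, 15.1 and 15.96 CPM at day 3. The change was -1.19 ± 0.14 by day 1 and -1.49 ± 0.14 by day 3 (adjusted p = 2.2e-06 and 1.1e-07). Its ubiquitous partner *Cox6b1* stood at 138, 141 and 145 CPM at day 0 and at 105, 101 and 95.1 CPM at day 3, lower in every day 3 library. *Cox7a1*, the muscle form of subunit VIIa, was low throughout (3.85, 4.04 and 2.60 CPM at day 0) and fell by day 1 to 1.12, 2.51 and 1.63 CPM (-0.998 ± 0.28, adjusted p = 0.0049), and the value at day 3 was -0.99 ± 0.28 (adjusted p = 0.0039).

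*Ndufa4l2*, a paralogue of *Ndufa4* known as a target of hypoxia-inducible factor, showed the widest swing. Its CPM were 4.91, 12.1 and 1.81 at day 0, 0.596, 0.456 and 0.245 at day 1, 4.24, 3.42 and 3.89 at day 2, and 5.97, 6.95 and 5.35 at day 3. Day 1 lay below every other library of the time course, and the day 0 libraries were far apart. The change was -3.84 ± 0.74 from day 0 to day 1 and 3.11 ± 0.80 from day 1 to day 2 (adjusted p = 0.0012 and 0.0067), while day 3 and day 0 differed by -0.07 ± 0.48 (adjusted p = 0.90). Without day 0 replicate 2 that last value was 0.86. In the GFP+ libraries the gene had 0 to 8 estimated counts. *Cox7b2*, a low isoform of subunit VIIb, moved in the opposite sense, with 20, 14 and 12 estimated counts at day 1 against 3 to 4 at day 0 and 3 to 5 at day 2 (2.06 ± 0.44 and -1.89 ± 0.43, adjusted p = 0.00049 and 0.00093). At 1 to 4 counts at day 3 its change from day 0 was -0.90 ± 0.66 and did not pass the test.

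The c ring of the ATP synthase is built from 1 protein that 3 genes encode, and the mature protein of the 3 is the same. *Atp5g1* stood at 182, 169 and 191 CPM at day 0 and at 100.4, 119.6 and 118 CPM at day 3 (-0.68 ± 0.07, adjusted p = 9.5e-08). *Atp5g3* had 258, 255 and 271 CPM at day 0 and 238, 235 and 225 CPM at day 3 (-0.17 ± 0.05, adjusted p = 0.0084), a call that was lost with limma on log2(TPM + 1) (adjusted p = 0.058) and with an offset for transcript length (adjusted p = 0.10). *Atp5g2* had 221, 224 and 219.8 CPM at day 0 and 240.3, 239.7 and 225 CPM at day 3 (0.09 ± 0.05, adjusted p = 0.13). The lowest *Atp5g2* library of day 3 was above the highest of day 0 by about 1 CPM, and upper-quartile scaling, the length offset and limma on log2(TPM + 1) brought the gene past the threshold as higher. The difference between the 3 genes was not itself tested.

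**Figure D3:**
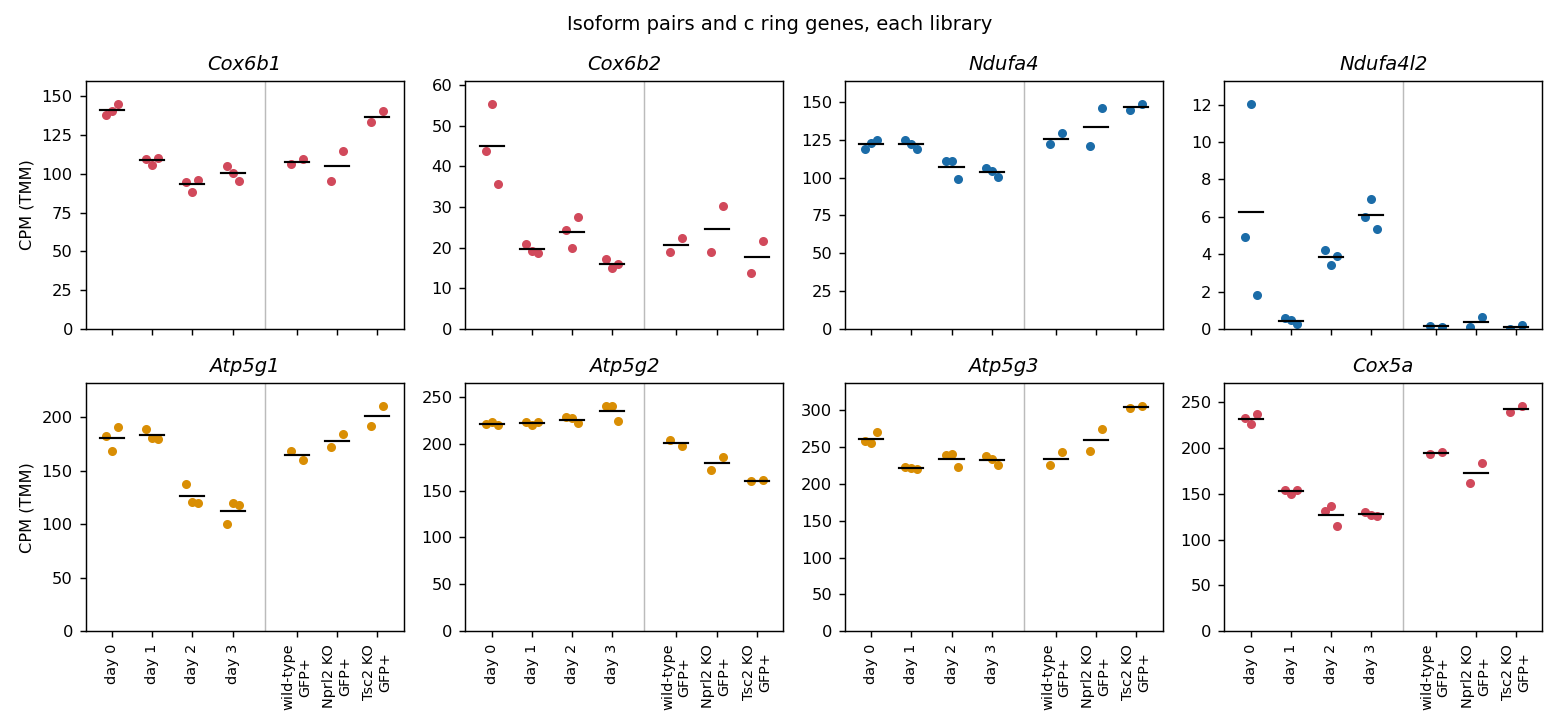
CPM (TMM-scaled; y axes from 0) of 8 genes in every library (points) by day or genotype, with group means as bars. *Cox6b2* and *Cox5a* drop at day 1, *Ndufa4l2* dips at day 1 to at most 0.596 CPM and returns, *Atp5g1* drops at day 2, and *Atp5g2* is lowest in *Tsc2* KO.

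The steps between days showed when the falls took place. From day 0 to day 1, 38 of 79 genes were lower and 2 were higher, with a median of -0.14, while over all genes tested 30.8% were lower and 30.1% higher. *Ndufb4*, an accessory subunit of the complex I membrane arm, went from 60.0, 61.8 and 61.2 CPM to 39.2, 39.7 and 35.2 CPM (-0.68 ± 0.07, adjusted p = 2.2e-07). Beside *Cox7b2*, only *Ndufs8*, an iron-sulfur subunit of complex I, was higher at day 1, with 49.1, 52.3 and 52.7 CPM after 42.2, 43.1 and 44.9 CPM (0.24 ± 0.07, adjusted p = 0.0077). All 4 complex II genes were lower at day 1, with a median of -0.27.

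From day 1 to day 2, 30 of 79 genes were lower and 7 higher, with a median of -0.11, beside 29.6% lower and 32.5% higher over all genes. This step depended on the scaling. With upper-quartile factors, 18 were lower and 12 higher, with the length offset 24 and 10, and with limma on log2(TPM + 1), 15 were lower and 19 higher. The shares of all genes called in these settings are not given here, so these counts have no background beside them. Upper-quartile factors and limma moved the median of all genes from 0.02 to 0.10 and 0.11, against -0.03 and 0.01 for the members. Under both, the members therefore stayed below the median of all genes by a similar margin. The median of all genes with the length offset is not given here. *Atp5g1* (-0.54 ± 0.07), *Ndufb5* (-0.47 ± 0.07), *Ndufa11* (-0.44 ± 0.08) and *Cox6a1* (-0.44 ± 0.05) had the largest falls. *Ndufb5*, an accessory subunit of complex I, lay at 72.8, 74.7 and 75.7 CPM at day 1 and at 53.2, 55.3 and 52.6 CPM at day 2. *Ndufa2* (0.31 ± 0.08), the complex I accessory subunit *Ndufv3* (0.31 ± 0.08) and *Cox7a2l* (0.26 ± 0.06), a factor that joins complexes III and IV into supercomplexes, rose beside *Ndufa4l2*. *Cox7a2l* had fallen from 157, 150.5 and 153 CPM to 112, 123 and 114 CPM at day 1, and it was back at 171, 165 and 148 CPM by day 3.

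From day 2 to day 3 few genes moved, with 9 lower and 3 higher of 79, beside 15.6% lower and 15.9% higher over all genes, and a median of -0.03. With limma on log2(TPM + 1), 5 were lower and 10 higher, and with the length offset 6 and 5. The shares of all genes called in these settings are not given here, so these counts too have no background. *Atp5d* (0.24 ± 0.07), *Cox7a2l* (0.20 ± 0.06) and *Uqcrh*, the hinge protein of complex III (0.20 ± 0.06), rose, but each lost the threshold without day 2 replicate 2 or without day 3 replicate 1. The largest falls were those of *Cox6b2* (-0.57 ± 0.15), *Cox6c* (-0.39 ± 0.08), *Cox7b* (-0.25 ± 0.06) and *Ndufa7* (-0.22 ± 0.08). The days overlapped for *Ndufa7*, and its call was lost in 11 alternatives, DESeq2, limma and the replicate block among them (adjusted p of 0.060 to 0.23). *Cox6c*, a small complex IV subunit, had 121, 124 and 97.3 CPM at day 2 and 90.6, 92.7 and 76.7 CPM at day 3. The count of 12 fell to 7 without day 2 replicate 2, to 4 without day 3 replicate 1 and to 6 without day 3 replicate 3.

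The second question was whether loss of a negative regulator of mTORC1 moved these genes in GFP+ mESCs. In *Tsc2* KO, 22 of 77 genes were higher than in wild-type and 1 was lower, while 54 did not pass the test. Over all 13725 genes tested, 14.9% were higher and 14.2% lower. The median of the 77 genes was 0.16, against 0.00 over all genes, and 63 of the 77 had a value above 0. The medians were 0.16, 0.18, 0.20, 0.15 and 0.15 for complexes I to V, with 9 of 35, 2 of 4, 2 of 8, 3 of 13 and 6 of 17 genes called higher, and differences between complexes were not tested. With any 1 of the 4 libraries left out, a group of 1 library remained and fewer genes were called, while the median stayed at 0.16 to 0.18. Whether the library left out or the loss of a replicate lowered the count was not tested. Tested with limma on log2(TPM + 1), which takes each library's own effective lengths into account, 42 were higher and 1 lower. The shares over all genes with limma are not given here, and the shares above are those of edgeR. The 42 therefore cannot be read as a stronger result than the 22.

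The largest rises were on chromosome 1. *Sdhc*, a membrane anchor of complex II, had 122 and 124 CPM in wild-type and 219.8 and 215 CPM in *Tsc2* KO (0.83 ± 0.06, adjusted p = 3.9e-06). *Ndufa10*, an accessory subunit of complex I, rose from 103.6 and 103.9 CPM to 174 and 177 CPM (0.76 ± 0.07, adjusted p = 8.5e-06). The 747 chromosome 1 genes tested had a median of 0.37 in this comparison, while the medians of the other autosomes and X lay between -0.11 and 0.04. Of the 6 members on chromosome 1, 3 did not pass the test. Without the 6 members on that chromosome, 19 genes were higher and 1 lower, with the median still 0.16.

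**Figure D4:**
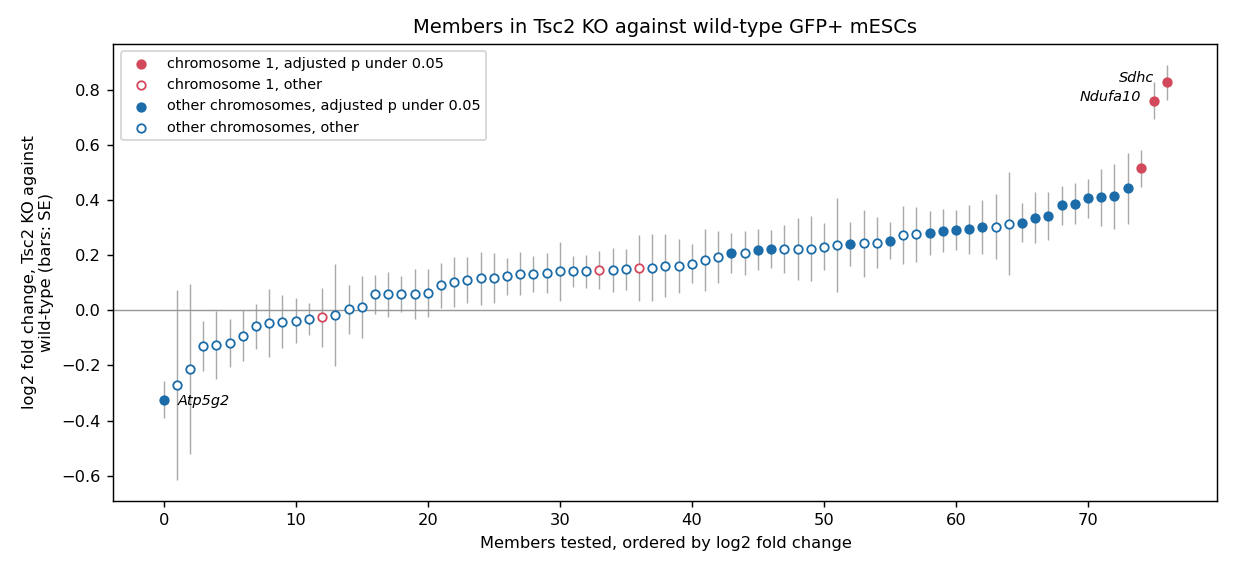
log2 fold change of *Tsc2* KO against wild-type GFP+ mESCs (y axis, bars are SE) for the 77 genes tested, in order of that value (x axis), with genes on chromosome 1 in red and filled points past an adjusted p of 0.05. *Sdhc* and *Ndufa10*, both on chromosome 1, stand at the top, and *Atp5g2* at the bottom is the 1 gene lower in the KO.

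Away from chromosome 1, *Cox5a* had 193 and 196 CPM in wild-type and 239 and 246 CPM in *Tsc2* KO (0.32 ± 0.07, adjusted p = 0.0056), and *Ndufb10*, an accessory subunit of the complex I membrane arm, 36.9 and 46.0 CPM against 54.5 and 57.5 CPM (0.44 ± 0.13, adjusted p = 0.023). *Uqcrc1* rose by 0.25 ± 0.07 (adjusted p = 0.014), although *Uqcrc1* and *Ndufb10* lost the threshold when certain single libraries were left out. The c ring genes again went different ways. *Atp5g3* went from 225 and 243 CPM to 304 and 306 CPM (0.38 ± 0.07, adjusted p = 0.0018) and *Atp5g1* from 169 and 160.2 CPM to 192 and 211 CPM (0.29 ± 0.07, adjusted p = 0.010). *Atp5g2* fell from 204 and 198 CPM to 159.7 and 161 CPM (-0.32 ± 0.07, adjusted p = 0.0033). The other subunits followed in each complex did not pass the test in edgeR: *Ndufs1* (0.15 ± 0.07), *Ndufv1* (0.13 ± 0.07), *Sdha* (0.14 ± 0.06), *Sdhb* (0.15 ± 0.08), *Uqcrfs1* (0.06 ± 0.07), *Cox4i1* (0.12 ± 0.07), *Atp5a1* (-0.03 ± 0.06) and *Atp5b* (0.14 ± 0.06). With limma on log2(TPM + 1), *Sdha*, *Atp5b* and *Ndufv1* passed it as higher (adjusted p = 0.049, 0.016 and 0.049), and *Sdha* also with the replicate block (adjusted p = 0.0498). *Ndufs8*, added after its value was seen, was higher in edgeR (0.29 ± 0.09, adjusted p = 0.028). *Cox6b2* (-0.21 ± 0.31) and *Cox7a1* (-0.27 ± 0.34) did not pass it either. The genotypes also differed in markers of pluripotent state. The 4 formative markers (*Fgf5*, *Otx2*, *Dnmt3b* and *Pou3f1*) summed to 212 and 219 CPM in *Tsc2* KO against 817 to 945 CPM in wild-type, and the part of this in the changes above was not tested.

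In *Nprl2* KO, 1 of 77 genes was higher than in wild-type and 0 were lower in edgeR, beside 2.78% higher and 3.66% lower over all genes. At an unadjusted p under 0.05, edgeR gave 6 higher and 5 lower. DESeq2 called 0 genes (2 higher and 0 lower unadjusted). With limma on log2(TPM + 1), 1 was called as higher, and 14 were higher and 4 lower unadjusted. The shares over all genes at the unadjusted threshold are not given here, so the unadjusted counts have no background beside them. The median was -0.01. The gene called in edgeR was *Atp5sl*, named after the ATP synthase but not a subunit of it. It had 42.2 and 43.5 CPM in wild-type and 56.6 and 55.1 CPM in *Nprl2* KO (0.38 ± 0.09, adjusted p = 0.025). It lost the threshold in DESeq2, in limma and with any 1 of the 4 libraries left out. In CPM, the *Nprl2* KO libraries were unlike each other in these genes. *Ndufa3* had 20.8 and 32.8 CPM in them and *Cox7b* 126 and 168 CPM, 2 examples chosen after their values were seen. In TPM, which uses each library's own effective lengths, *Ndufa3* had 290 and 335 in them and *Cox7b* 225 and 290. The median without *Nprl2* KO replicate 1 was 0.08 and without replicate 2 it was -0.11. The estimated length lost to fragment size differed between the GFP+ libraries, from 170 to 228 bases, and was largest in *Nprl2* KO replicate 1, and transcripts of the members were short, with a median of 668 bases against 2844 for all genes tested. Its part in that spread was not tested.

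*Tsc2* KO and *Nprl2* KO were also compared directly, with *Tsc2* KO libraries that both *Tsc2* comparisons share. In *Tsc2* KO, 22 genes were higher and 1 lower than in *Nprl2* KO, beside 17.5% higher and 16.6% lower over all genes, with a median of 0.18 against -0.01. *Sdhc* (0.91 ± 0.06), *Ndufv3* (0.59 ± 0.09), *Ndufb4* (0.55 ± 0.10) and *Ndufa10* (0.54 ± 0.07) differed most. *Ndufb4* had 36.7 and 41.5 CPM in *Nprl2* KO, 57.1 and 57.2 CPM in *Tsc2* KO, and 45.8 and 40.0 CPM in wild-type. *Atp5sl* was lower in *Tsc2* KO (-0.28 ± 0.09, adjusted p = 0.027), but not past the threshold in DESeq2 or with any 1 of the 4 libraries left out (adjusted p of 0.072 to 0.13). The count of 23 was 31 without *Nprl2* KO replicate 2, and it fell to 11 without *Nprl2* KO replicate 1, to 13 without *Tsc2* KO replicate 1 and to 11 without *Tsc2* KO replicate 2.

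The rest of the pathway was described from listed genes outside the rule, beside the 35.9% lower and 35.0% higher over all genes at day 3 and the 14.9% higher and 14.2% lower in *Tsc2* KO. By day 3, 22 of 48 assembly factors tested were lower and 6 higher (median -0.22). *Sco1*, which delivers copper to complex IV, fell by 0.98 on the log2 scale. Of 19 genes of the citric acid cycle and pyruvate dehydrogenase, 9 were lower and 6 higher (median -0.11). *Pdha1*, the E1 alpha subunit of pyruvate dehydrogenase, changed by -0.87 and *Idh2*, the mitochondrial NADP-dependent isocitrate dehydrogenase, by -0.95. Of 13 genes for cytochrome c and coenzyme Q synthesis, 8 were lower and 4 higher, and *Cycs*, somatic cytochrome c, was among the latter at 0.44. Of 17 regulators of mitochondrial biogenesis, 6 were lower, among them *Nrf1* (-0.24) and *Gabpa* (-0.64), and 5 were higher, among them *Yy1* (0.15), so the shares of this list were near those of all genes. Of 5 subunits that the name rule leaves out, 1 was lower and 1 higher. In *Tsc2* KO against wild-type, 6 of 19 citric acid cycle genes were higher, with *Idh2* at 1.11, and 4 of 49 assembly factors were higher and 1 lower. Of the 16 regulators, 1 was higher and 3 lower (*Yy1* at -0.89, *Nrf1* at -0.29, *Mycn* at -2.38). The low *Yy1* was not particular to *Tsc2* KO. It had 65.4 and 64.0 CPM there, 72.0 and 72.0 CPM in *Nprl2* KO, and 117 and 124 CPM in wild-type. Of the 5 subunits outside the rule, 1 was higher and 2 lower in *Tsc2* KO. The cytochrome c and coenzyme Q list had 2 higher and 1 lower. The 13 subunits encoded in mitochondrial DNA were not analysed here.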

How the data were processed

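RNA-seq libraries (12 of the time course and 6 of sorted GFP+ mESCs) were quantified by the authors with kallisto 0.42.1, per the labels' processing notes, which also name DESeq2 and mm10. The study names a stranded mRNA kit and paired-end reads for the GFP+ libraries. How the time-course libraries were made is not given in the sources used here. The deposited files hold estimated counts and TPM per transcript, and the authors also deposited a TPM table per gene. RefSeq gave a gene for 33709 of the 34079 transcripts listed and GENCODE M21 for a further 196. The remaining 174 were dropped and held 1.65% to 3.57% of the counts of a library. Estimated counts were summed to 24296 genes and rounded. Of the 84 members, 81 matched by RefSeq symbol and 3 by an older symbol, and their TPM equalled the deposited gene values (0 of 1512 differed by over 0.1% plus 0.001 TPM). The 2 deposited tables of the authors' own DESeq2 comparisons were not used.

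Each experiment was fitted separately with edgeR 4.0.16 in R 4.3.3 (TMM, filterByExpr, robust quasi-likelihood fit, group means), and p-values were adjusted by Benjamini-Hochberg over all genes tested with a threshold of 0.05. Nothing in the labels says that replicates came from separate cultures, so p-values measure the spread between these libraries, which may be technical. Replicates differed by more than counting noise (chi-square per gene 1.82 to 9.06), and intervals from counts cover counting error only: 3 counts correspond to 0.196 to 0.348 CPM. SE was the log2 fold change divided by the square root of F. CPM values are TMM-scaled. Alternatives were DESeq2 1.42.0, upper-quartile factors, no filter, at least 10 counts in every library, limma 3.58.1 on log2(TPM + 1) with genes at 1 TPM or more (pseudocount 1), an offset for a length trend, a replicate block, only the groups compared, and each library left out. The fits were tested on simulated data.

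The members, the gene lists and the tests were chosen with earlier results of these data known. Genes were named by rule. In each comparison these were the 4 largest rises and 4 largest falls among called members with a mean of at least 1 log2 CPM. Also named were 11 core or large subunits, whatever their call, and all 11 alternative isoforms. Members called in both KOs were to be named (there were none), and other genes only from the lists where called. Motif letters were chosen after the fits were seen, and longer forms of the NRF1 and YY1 letters, counted first, were then replaced by the cores given. The values of 1 member are not reported here, though it is included in the counts and medians.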

Additional observations from a re-analysis of the deposited data

Results flagged for a closer look

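The effects of the 2 KOs differed, by the direct edgeR comparison of *Tsc2* KO with *Nprl2* KO (adjusted p under 0.05), for 23 of the genes of oxidative phosphorylation. As log2 fold changes, *Tsc2* KO was higher for *Sdhc* by 0.91, *Ndufv3* by 0.59, *Ndufb4* by 0.55, *Ndufa10* by 0.54, *Cox5a* by 0.49, *Ndufb10* by 0.45, *Uqcrb* by 0.44, *Cox6b1* by 0.38 and *Ndufb9* by 0.35. Smaller differences were found for *Atp5o* (0.34), *Ndufa7* (0.33), *Ndufa1* (0.33), *Ndufc1* (0.31), *Uqcr11* (0.30), *Atp5f1* (0.29), *Ndufb11* (0.28), *Cox4i1* (0.27), *Atp5g3* (0.23), *Sdha* (0.23), *Cox6a1* (0.22) and *Ndufb8* (0.22). *Atp5sl* was lower in *Tsc2* KO (-0.28), a call lost in DESeq2 and with any 1 of the 4 libraries left out. *Sdhc* and *Ndufa10* lie on chromosome 1, whose genes tested had a median of 0.36 in this comparison.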

How the results depend on the processing

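With upper-quartile factors the median of the genes was -0.16 for day 1 against day 0, -0.029 for day 2 against day 1 and -0.23 for day 3 against day 0. With limma on log2(TPM + 1), as on the deposited gene TPM, the medians were -0.21, 0.0093 and -0.19 for these 3 comparisons and 0.018 for day 3 against day 2, and 0.23 with 43 genes called for *Tsc2* KO against wild-type and 37 called for *Tsc2* KO against *Nprl2* KO. The length offset gave medians of -0.052 (day 2 against day 1), -0.22 (day 3 against day 0) and 0.14 (*Tsc2* KO against wild-type), at least 10 counts in every library gave -0.077 (day 2 against day 1), and DESeq2 and no filter gave 0.15 each for *Tsc2* KO against wild-type. DESeq2 called 0 genes for *Nprl2* KO. The causes were not tested, and the shares of all genes called under these alternatives are not given here. Left out 1 at a time (a lone library of a group was then assumed to vary like the other groups), libraries gave 4 to 13 called genes for day 3 against day 2, 0 for *Nprl2* KO, 8 to 14 for *Tsc2* KO and 11 to 31 for *Tsc2* KO against *Nprl2* KO, with medians of -0.11 to 0.076, 0.16 to 0.18 and 0.093 to 0.24 for the 3 genotype comparisons. In the other 3 time-course comparisons the leave-one-out counts stayed within 1.5 times the reported ones (32 to 40, 30 to 34 and 54 to 58). *Atp5a1* in *Tsc2* KO turned to 0.0050 with limma, and *Ndufa4l2* at day 3 against day 0 to 0.37 with limma, 0.068 with the replicate block and -0.50 to 0.86 with 1 library left out.

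Libraries with the same replicate number did not pair throughout: their deviations correlated at -0.11 to 0.13 in the time course, where 8 of 12 libraries were closest to their own number, and at 0.08 to 0.16 in the GFP+ libraries, where 6 of 6 were. With the replicate block, 3 genes were called in *Nprl2* KO, 31 in *Tsc2* KO and 35 for *Tsc2* KO against *Nprl2* KO, and 41, 36, 12 and 60 in the time-course comparisons in order of day. Depth limited *Cox7b2* in particular, with at most 20 estimated counts in any time-course library.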
